A study of Mus musculus with 6 samples.

Results

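The miR-29 family of the mouse lung was read by 3 PCR wells, named mmu-miR-29a, mmu-miR-29b and mmu-miR-29c in the table and written here without the species prefix. They were taken by name from the 750 miRNA wells of a 2-card panel, after species prefixes, assay numbers and arm suffixes had been dropped. Names that end in # mark the other strand of a hairpin and were set aside, which left 5 such wells for a separate comparison. All 3 family wells lay on the first card and amplified in all 6 samples.

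The tested lungs came from newborn mice kept in hyperoxia, 95% oxygen, for 168 hours from under 12 hours of age (3 samples, hyperoxia 1 to 3). The other lungs came from mice kept in room air over the same days (3 samples, room air 1 to 3). All mice were at day 7, all right lungs were excised after the pulmonary artery had been rinsed with PBS, and nursing dams were rotated between the chamber and room air, per the labels. Strain, sex, litter and the number of animals behind a sample are not given in the sources used here. The p-values therefore rest on the scatter of these 6 samples, part of which may be technical.

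Values are threshold cycles (Ct), the PCR cycle at which a well's signal crosses a threshold, so that a lower Ct stands for more RNA. A log2 relative abundance was formed as the mean Ct of 282 first-card miRNAs detected in all samples minus the Ct of the well. Each sample had 307 to 319 miRNA wells with a Ct under 35 on the first card, and 268 to 293 on the second. On the second card, room air 1 and hyperoxia 2 held identical values in 308 of the 309 wells that amplified in both, against 0 of 312 on the first card. Those second-card values were left out of both samples, so that family wells rest on 3 samples a group and other-strand wells on 2.

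miR-29 miRNAs pair through their seed, the bases near the 5′ end, with mRNAs of collagens, elastin, fibrillin and other matrix proteins, and lower their output. They are known as antifibrotic miRNAs, and TGF-beta signalling is known to reduce them in fibroblasts. In the lung, matrix made by fibroblasts and smooth muscle shapes the new septa while alveoli form after birth.

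The 3 mature sequences are shown because the wells tell nearly identical RNAs apart. They are RefSeq sequences of the mouse build GRCm38.p6, all 3 names matched, and capitals mark the seed (bases 2 to 8).
miR-29a: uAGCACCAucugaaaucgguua
miR-29b: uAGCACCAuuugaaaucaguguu
miR-29c: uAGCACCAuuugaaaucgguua
The seed is the same in all 3, and no other mature name among the 1679 in the mouse RefSeq miRNA table carries it. Counted from 1 at the 5′ end, with the base of miR-29a first, miR-29c differs from miR-29a at 1 of 22 positions, C10U. With the base of miR-29c first, miR-29b differs from miR-29c at 3 of 22 positions, G18A, U21G and A22U, and is 1 base longer. How far each assay also reads the other members was not tested, so the split between members is uncertain.

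The family comes from 2 pairs of hairpins. Mir29a (chr6:31062660-31062747) and Mir29b-1 (chr6:31063023-31063093) lie on the minus strand with 275 bases between them, and no other gene of the RefSeq table overlaps them. Mir29b-2 (chr1:195037040-195037120) and Mir29c (chr1:195037547-195037634) lie on the plus strand with 426 bases between them, within the span of the lncRNA A330023F24Rik. Mature miR-29b is the same RNA from both loci, so its well cannot tell them apart.

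Set against the mean of the first card's miRNAs, all 3 members had positive differences in hyperoxia lungs, from 1.80-fold for miR-29a to 2.37-fold for miR-29b. None of the 3 passed the test over all assays (limma adjusted p from 0.333 to 0.518). In the raw cycles the same wells came up earlier in hyperoxia by a mean of 0.49 cycles or less, with overlapping groups, while most miRNAs of the card came up later in hyperoxia. Whole lung RNA was measured, so a change in the number of cells of a type and a change in RNA per cell cannot be told apart.

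The raw cycles come first. miR-29a had a Ct of 18.465, 17.596 and 18.954 in hyperoxia 1 to 3, against 18.368, 18.67 and 18.236 in room air 1 to 3. The groups overlapped, with hyperoxia 2 the earliest and hyperoxia 3 the latest of all 6 samples. miR-29b had a Ct of 25.786, 24.766 and 25.812 in hyperoxia, against 26.194, 26.213 and 25.418 in room air. Here too hyperoxia 2 was earliest, and room air 3 lay among the hyperoxia values. miR-29c had a Ct of 22.794, 22.018 and 22.733 in hyperoxia, against 22.691, 22.782 and 22.722 in room air. Hyperoxia 2 stood apart, and the other 5 samples of miR-29c lay between 22.691 and 22.794. In cycles the group means differed by -0.09 for miR-29a, -0.49 for miR-29b and -0.22 for miR-29c, hyperoxia minus room air, with two-sided exact permutation p of 0.9, 0.3 and 0.9. The smallest p that 3 samples against 3 allow is 0.1.

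The reference moved the other way. The mean Ct of the 282 miRNAs was 23.47, 22.61 and 23.31 in hyperoxia 1 to 3, against 22.03, 22.48 and 22.60 in room air 1 to 3, a difference of 0.76 cycles (two-sided exact permutation p of 0.1). Of these miRNAs, 31 (11%) had an earlier mean Ct in hyperoxia and 251 a later one, and the family's 3 wells were among the 31. Across the 302 first-card assays tested, 45% had hyperoxia Ct values all later than room air and 1.32% all earlier, and the family was in neither set. The cause of the later cycles in hyperoxia was not tested.

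**Figure D1:**
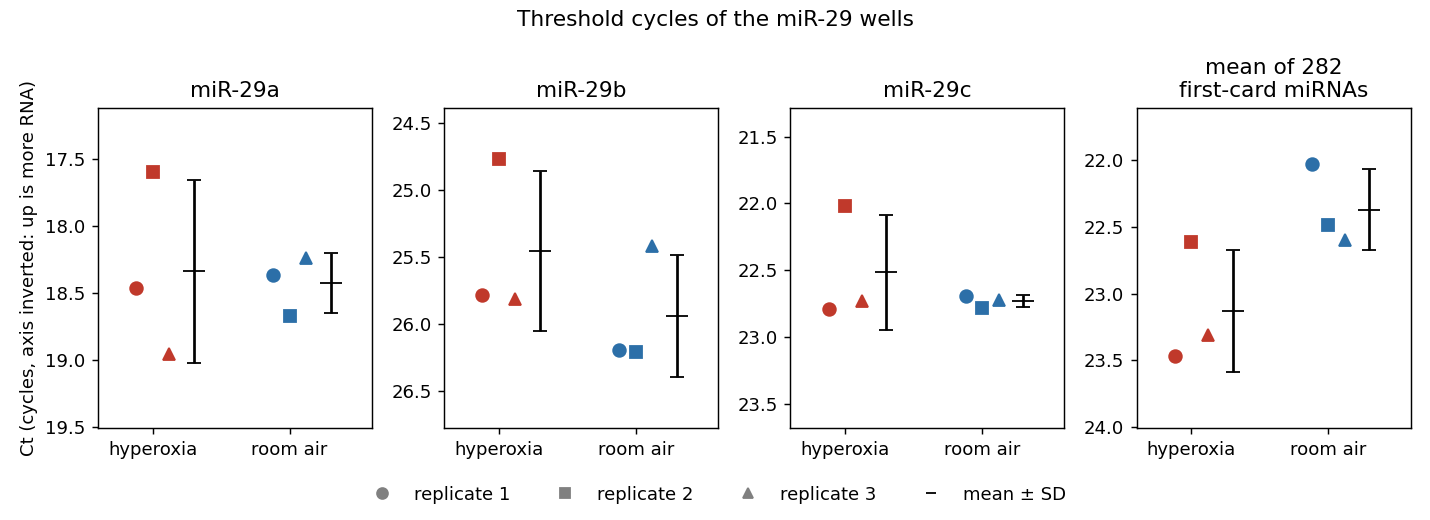
Ct in cycles (inverted axis, up is more RNA) of miR-29a, miR-29b, miR-29c and the mean of 282 first-card miRNAs, hyperoxia in red and room air in blue, with group mean ± SD (n = 3). The miR-29 groups overlap in all 3 wells, while the card mean is later in all 3 hyperoxia samples.

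On the relative scale miR-29c separated best. Its log2 relative abundance was 0.67, 0.59 and 0.58 in hyperoxia 1 to 3, against -0.66, -0.30 and -0.12 in room air 1 to 3. The groups did not overlap, with a gap of 0.70 between them. On this scale the hyperoxia samples lay within a narrower range (SD 0.05, n = 3) than the room air samples (SD 0.28, n = 3). In raw cycles the spread was the reverse, with an SD of 0.43 in hyperoxia and 0.046 in room air, so it depends on the card mean. The log2 fold change was 0.98 ± 0.25 (SE), or 1.97-fold with a 95% confidence interval of 1.29 to 3.01, and limma's adjusted p was 0.333.

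miR-29b, which also carries a nuclear localisation motif at its 3′ end in human cells, was at -2.32, -2.15 and -2.50 in hyperoxia, against -4.17, -3.73 and -2.82 in room air. The groups did not overlap, but room air 3 lay within 0.32 of the lowest hyperoxia sample. The log2 fold change was 1.25 ± 0.40 (SE), or 2.37-fold with a 95% confidence interval of 1.19 to 4.75, and limma's adjusted p was 0.446.

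miR-29a was at 5.00, 5.02 and 4.36 in hyperoxia, against 3.66, 3.81 and 4.36 in room air. Hyperoxia 3 and room air 3 were level, the lowest hyperoxia minus the highest room air value being -0.0068, so the groups touched. The log2 fold change was 0.85 ± 0.33 (SE), or 1.80-fold with a 95% confidence interval of 1.02 to 3.17, and limma's adjusted p was 0.518.

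**Figure D2:**
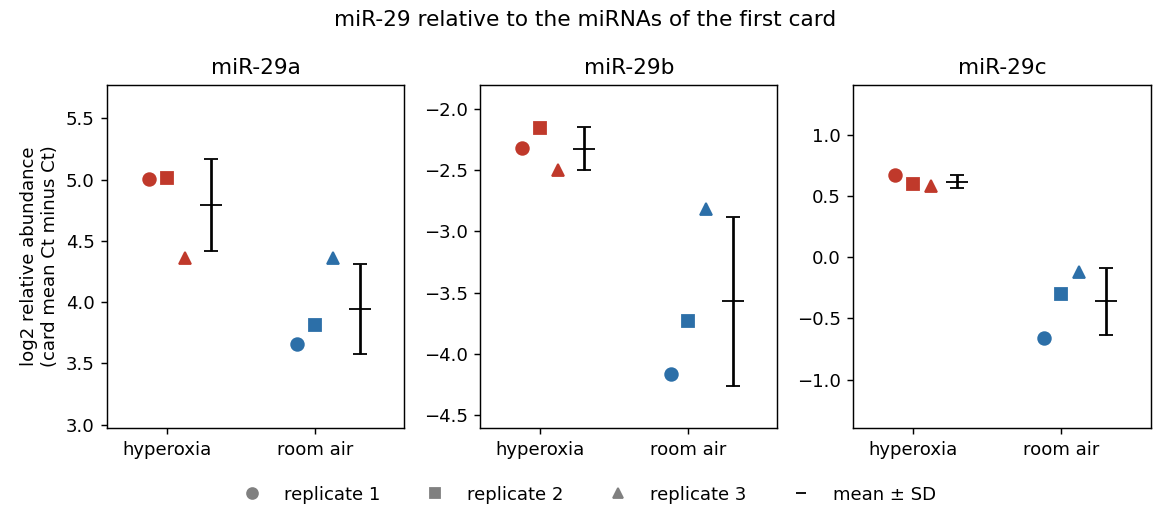
Log2 relative abundance (mean Ct of 282 first-card miRNAs minus Ct) of the miR-29 wells in each sample, hyperoxia in red and room air in blue, with group mean ± SD (n = 3). miR-29c and miR-29b do not overlap between groups, and miR-29a touches at 4.36, with room air 3 the highest of its group in all 3 panels.

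By limma over all assays, 0 of the 3 members passed an adjusted p of 0.05, and neither did any other of the 551 assays tested (0%). At an unadjusted p of 0.05 or less, all 3 members lay on the higher side (p of 0.0448, 0.0229 and 0.00844 for miR-29a, miR-29b and miR-29c), against 20 of 551 assays (3.63%). This count of 3 depended on the reference and on single samples. It was 0 with the 5 small RNA controls, with the U6 wells of row A and with no reference, and 1, miR-29c, with all U6 wells of the first card. It was 1, again miR-29c, without hyperoxia 2, without room air 1 or without room air 2, and 2 without hyperoxia 1. Groups that did not overlap on the higher side were found for 2 of the 3 members and for 19 of the 302 first-card assays (6.29%). The members share near-identical sequences and the same samples, so they are not independent observations. By size, miR-29b ranked 28 of 302 on the first card, miR-29c 34 and miR-29a 38, and 12.6% of the assays had a log2 fold change above 0.8. The median of the 3 members was 0.98, beside -0.13 over the 302 assays, of which 124 were positive and 178 negative.

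**Figure D3:**
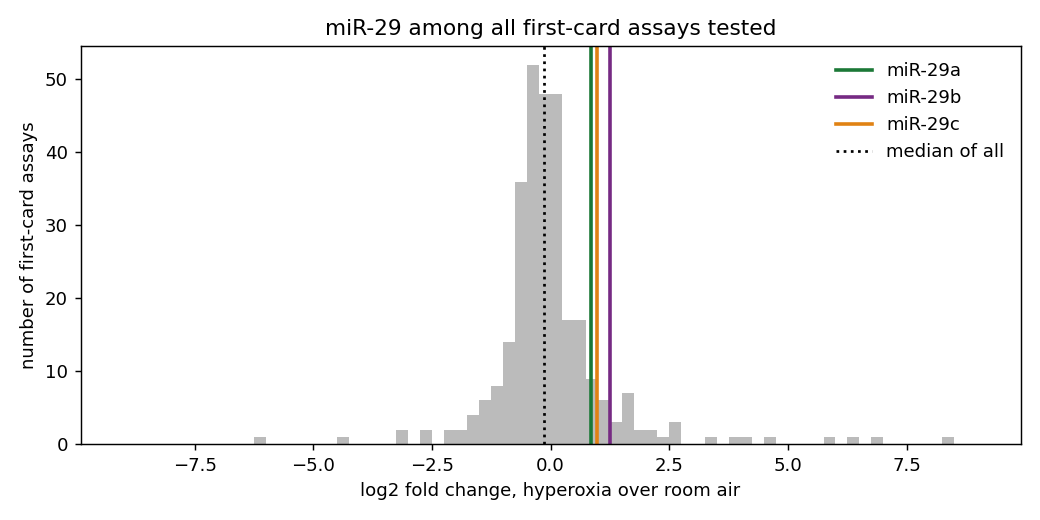
Number of first-card assays by log2 fold change, hyperoxia over room air (302 assays, bars), with miR-29a, miR-29b and miR-29c as coloured lines and the median of all as a dotted line. The 3 members lie between 0.85 and 1.25, on the upper shoulder, and 27 assays lie above miR-29b.

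The size of the difference depended on what stood for 0. Relative to the 5 small RNA controls together, the log2 fold changes were 0.28, 0.68 and 0.41 for miR-29a, miR-29b and miR-29c, and the median first-card assay was then at -0.69. With no reference the values were 0.09, 0.49 and 0.22, and that median was at -0.90. Measured from the median first-card assay, the members stood at 0.98, 1.38 and 1.11 with the card mean as reference and at the same values within 0.01 with no reference. This follows from the method, since such a reference takes 1 value per sample off every first-card well. It is therefore no separate check. The authors' deposited table gives folds of hyperoxia over room air of 1.43, 1.89 and 1.57 for the 3 members, with no test. Folds recomputed here with row A of the first card's U6 wells as reference round to the same values.

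**Figure D4:**
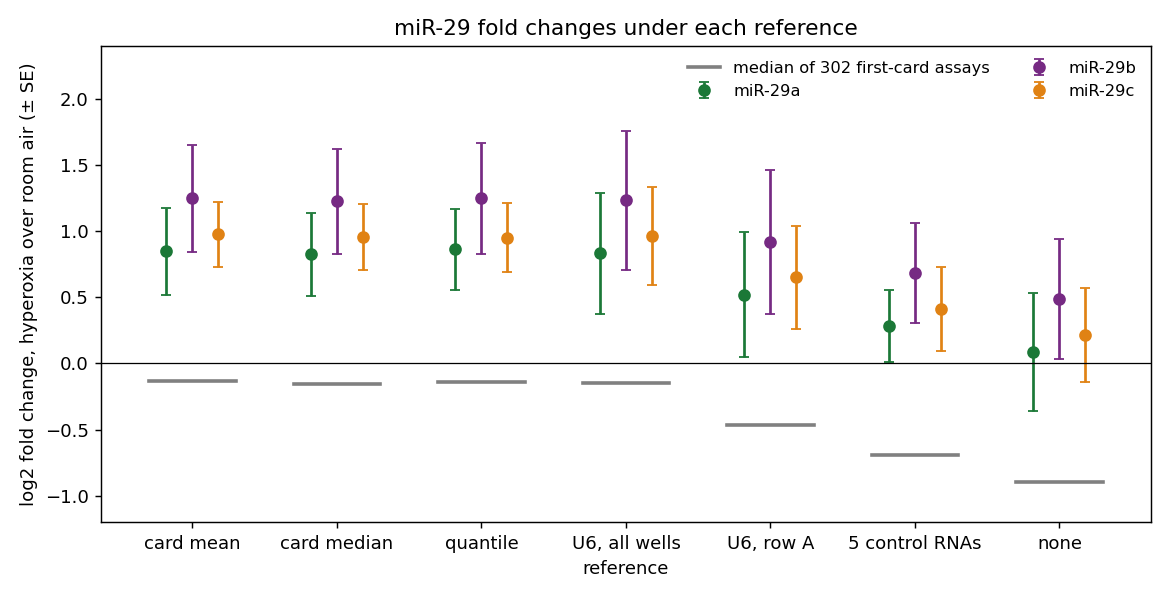
Log2 fold change, hyperoxia over room air, of miR-29a, miR-29b and miR-29c (points ± SE from limma) under 7 references, with the median of 302 first-card assays as grey bars. All points are above 0, and the distance to the grey bar hardly changes while both move down for U6 row A, for the control RNAs and for no reference.

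Each control RNA was also set against each member within the sample, 18 ratios in all. The mean was higher in hyperoxia for 17 and lower for 1, with differences from -0.04 to 1.55 on the log2 scale. Only the 3 ratios to the U6 wells in row B did not overlap between groups, at 1.15 for miR-29a, 1.55 for miR-29b and 1.28 for miR-29c, each with an exact permutation p of 0.1 and 0.6 after Benjamini-Hochberg adjustment over the 18. U6, the spliceosomal RNA, was itself later in hyperoxia by 1.06 cycles in row B and 0.43 in row A. Rows A and B held the same U6 Ct in room air 1 (9.364) and in room air 3 (10.258), but not in the other samples. The 2 rows are thus not separate readings in those room air samples, and the cause was not tested. Against snoRNA202, a small nucleolar RNA that differed by 0.04 cycles, the members were at 0.12, 0.53 and 0.25, with exact permutation p of 0.6, 0.2 and 0.2. Against snoRNA135 and U87 miR-29a was at 0.01 and -0.04.

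The ratio of 2 members within a sample needs no reference. The log2 ratio of miR-29b over miR-29a was -7.32, -7.17 and -6.86 in hyperoxia, against -7.83, -7.54 and -7.18 in room air, and the groups overlapped. The difference was 0.40 (exact permutation p of 0.2, adjusted 0.6 over 3 ratios), and 0.25 without room air 1. miR-29c over miR-29b was at 2.99, 2.75 and 3.08 in hyperoxia, against 3.50, 3.43 and 2.70 in room air, a difference of -0.27 (exact permutation p of 0.4). It was -0.17 without hyperoxia 2, -0.12 without room air 1, -0.16 without room air 2 and -0.53 without room air 3. miR-29c over miR-29a, the pair that differs by 1 base, was at -4.33, -4.42 and -3.78 in hyperoxia, against -4.32, -4.11 and -4.49 in room air, a difference of 0.13 (exact permutation p of 0.7). No unequal change between members was detectable with 3 samples a group. Ratios between wells carry each assay's own efficiency, so the ratios do not give the members' amounts. By Ct in room air, 57 of 306 first-card wells came up earlier than miR-29a, 150 earlier than miR-29c and 224 earlier than miR-29b.

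The members followed each other across samples. Over the 6 samples, relative abundance correlated by r of 0.94 for miR-29a with miR-29b, 0.90 for miR-29a with miR-29c and 0.95 for miR-29b with miR-29c. Within groups, after the group means were taken off, these were 0.83, 0.68 and 0.89. These are descriptions over 6 points, with all wells read from the same samples and set against the same card mean. In room air the order of the relative values was the same in all 3 wells, with room air 1 lowest and room air 3 highest. The card mean Ct, which enters all 3, has that order too (22.03, 22.48 and 22.60 in room air 1 to 3). In raw cycles room air 2 had the least RNA in all 3 wells, and for miR-29c room air 1 had the most.

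Among the 279 other first-card miRNAs detected in all samples, 6 had an r above 0.9 with the mean of the family. The 5 closest were miR-221 (r = 0.98), miR-21 (0.95), miR-685 (0.92), miR-509-3p (0.92) and miR-135a (0.92), again over 6 samples. The first 2 are abundant and their sequences are shown to set their seeds beside that of miR-29, with which neither is shared.
miR-221: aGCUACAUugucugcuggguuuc
miR-21: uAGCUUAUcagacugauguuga
miR-221, which represses the cell cycle inhibitor Cdkn1b, was at 4.21, 4.19 and 3.68 in hyperoxia, against 2.49, 2.52 and 3.16 in room air. It shares with the family that hyperoxia 3 is the lowest of its group and room air 3 the highest. miR-21, abundant in injured and fibrotic tissue, was at 7.02, 6.47 and 6.28 in hyperoxia, against 4.55, 5.11 and 5.28 in room air. Their log2 fold changes of 1.30 and 1.61 did not pass (limma adjusted p of 0.333 and 0.314).

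The other strand of each hairpin was read on the second card, by wells named for mouse, human or rat. The mouse RefSeq 5p sequences are shown because they do not share the family's seed (capitals, bases 2 to 8), and so read the same hairpins through unlike RNAs.
miR-29a-5p: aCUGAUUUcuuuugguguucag
miR-29b-1-5p: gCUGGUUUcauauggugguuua
miR-29b-2-5p: cUGGUUUCacaugguggcuuagauu
miR-29c-5p: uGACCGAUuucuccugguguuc
Which of the miR-29b hairpins the well mmu-miR-29b# reads is not stated in the files. Second-card names carry a further limit. All 105 names there that end in an assay number match the number listed 3 wells later, so that names and number column are out of step. Names were used here.

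The well mmu-miR-29b# had a log2 relative abundance of -0.97 and -1.47 in hyperoxia 1 and 3, against -2.23 and -2.19 in room air 2 and 3. The groups did not overlap, and the log2 fold change was 0.99 ± 0.36 (SE; limma adjusted p = 0.602). The well hsa-miR-29b-2# was at -4.89 and -4.92 in hyperoxia, against -5.40 and -5.39 in room air, again without overlap, at 0.49 ± 0.31 (SE; limma adjusted p = 0.689). On the second card 12.4% of assays were higher without overlap, since 2 samples a group separate easily. The wells hsa-miR-29a# (-0.76 and -1.71 in hyperoxia, -2.18 and -1.37 in room air) and rno-miR-29c# (-1.18 and -1.38 in hyperoxia, -1.31 and -1.99 in room air) overlapped, at 0.54 ± 0.56 and 0.37 ± 0.41 (SE; limma adjusted p of 0.787 and 0.804). All 4 wells had positive values and 0 passed. With the shared values kept in both samples, mmu-miR-29b# was at 0.67 and the other 3 at 0.25 to 0.37.

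**Figure D5:**
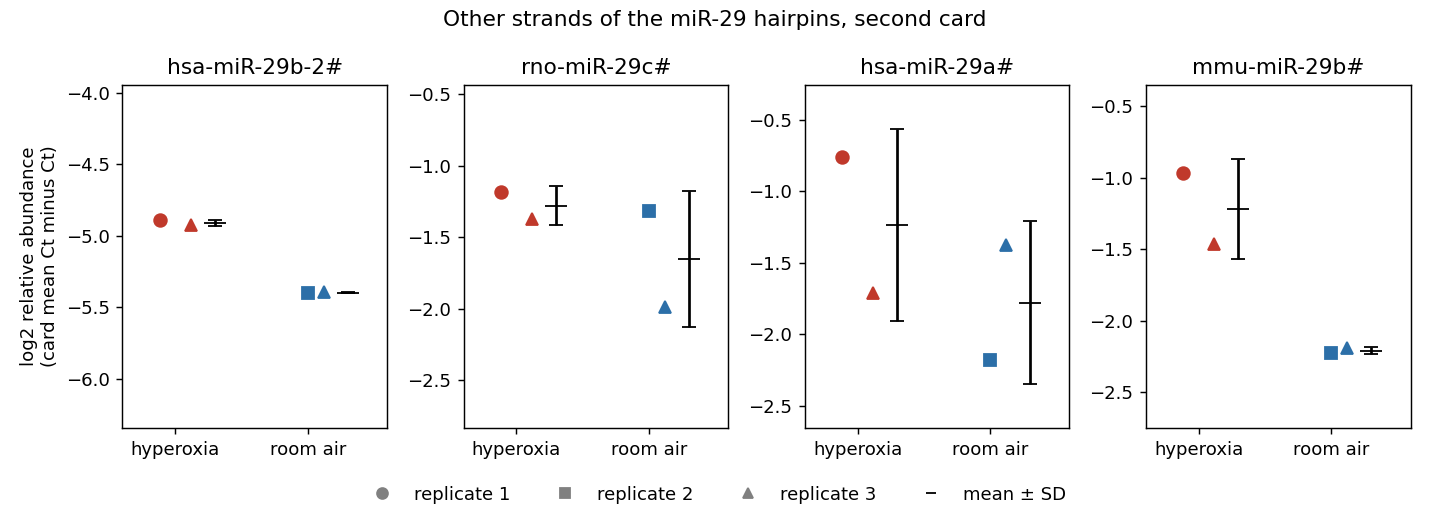
Log2 relative abundance of 4 other-strand wells of the second card, hyperoxia 1 and 3 in red and room air 2 and 3 in blue, with group mean ± SD (n = 2). hsa-miR-29b-2# and mmu-miR-29b# do not overlap between groups, the other 2 wells do.

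The main strand was then set against the other strand within the samples that hold both, as a difference of log2 relative abundances. Each ratio therefore carries the mean Ct of both cards. Those means differed between groups by 0.76 cycles on the first card (3 samples a group) and 0.19 on the second (2 samples a group). In raw cycles of the same samples, with no card mean, all 4 differences given next were negative, so their sign depends on the references. miR-29a over hsa-miR-29a# was at 5.76 and 6.07 in hyperoxia, against 6.00 and 5.74 in room air, a difference of 0.05. miR-29c over rno-miR-29c# differed by 0.47, miR-29b over hsa-miR-29b-2# by 0.37 and miR-29b over mmu-miR-29b# by -0.13. With the identical second-card values kept in both samples these 4 differences were 0.48, 0.73, 0.92 and 0.58, so the sign of miR-29b over mmu-miR-29b# changed, with exact permutation p from 0.1 to 0.6. As reported, the exact permutation p ran from 0.667 to 1, where 2 samples against 2 allow no less than 0.333. A change in the share of the strands was not detectable at this number of samples.

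Other miRNAs known to act on matrix or TGF-beta genes were described by a list of 36 names, which had 41 tested wells. Of these, 15 were positive and 26 negative, 0 passed by limma, and the median was -0.12, beside -0.12 over all 551 assays. At an unadjusted p of 0.05 or less, 2 of the 41 lay on the higher and 2 on the lower side, against 3.63% and 5.44% of all assays. Among the 28 wells of miRNAs known to lower matrix or TGF-beta output, as miR-29 does, 9 were positive and the highest was let-7d, picked after its value was seen, at 0.24 ± 0.42 (SE). The lowest were miR-26a at -1.60 ± 0.84, the neuronal miR-153 at -1.48 ± 0.48 and the muscle miRNA miR-133a at -0.98 ± 0.46 (SE each, limma adjusted p from 0.446 to 0.667). The 3 miR-29 wells lay above the first-card wells of the 28, under each of the 7 references tried. These are mostly not separate checks, since taking 1 value per sample off a card cannot reorder its wells. Second-card wells rest only on hyperoxia 1 and 3 and room air 2 and 3, so they are no like comparison. Relative to the 5 control RNAs miR-29a was at 0.28 over all 6 samples, and hsa-miR-200c at 0.25 over these fewer samples. In the fewer samples miR-29a had a Ct of 18.465 and 18.954 in hyperoxia, against 18.67 and 18.236 in room air. With no reference that mean was later in hyperoxia, unlike over all 6, so the order against second-card wells can depend on the samples. Among the 13 wells of miRNAs that raise matrix or rise in fibrosis, 6 were positive and 7 negative, with a median of -0.01. miR-34a, induced by p53, was at 2.55 ± 0.28, miR-21 at 1.61 ± 0.33, miR-155 at 0.94 ± 0.63 and miR-199a-5p at 0.68 ± 0.61 (SE each, limma adjusted p from 0.0723 to 0.754). miR-145, a miRNA of smooth muscle, was at -0.68 ± 0.23 (SE; limma adjusted p = 0.477), lower without overlap between groups. miR-377, at -2.52 ± 3.03, was the lowest of the list and the widest in spread (limma adjusted p = 0.815). Counts on each side of 0 move with the reference: relative to the 5 control RNAs 7 of the 41 wells were positive, with let-7d at -0.32 and miR-199a-5p at -0.08, and with no reference 5 were.

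Markers of lung cell types were read on the same cards. Of 44 wells in 7 lists, 0 passed by limma, and each was detected in at least 1 sample. In the smooth muscle and mesenchyme list 4 of 7 wells were positive, from miR-145 at -0.68 to miR-199a-5p at 0.68, and the summed relative level of its first-card wells was 253 to 333 times the card mean in hyperoxia, against 333 to 395 in room air. In the endothelial list 2 of 4 were positive, from miR-126-3p at -0.61 to miR-221 at 1.30, with sums of 1166 to 1321 in hyperoxia, against 1141 to 2422 in room air. Both sums lean on the top well, miR-145 or miR-126-3p, at a room air mean of 8.06 or 10.58 on the log2 scale. In the epithelial list 5 of 13 were positive, from miR-449a at -1.44 to miR-34c at 0.47, with sums of 124 to 225 in hyperoxia, against 198 to 229 in room air. In the leukocyte list 5 of 9 were positive, from miR-150 at -1.09 to miR-147 at 2.66, with sums of 214 to 237 in hyperoxia, against 183 to 295 in room air. Of the erythroid wells 2 of 3 were positive, with sums of 2.61 to 17.3 in hyperoxia, against 2.25 to 10.2 in room air. Of the striated muscle wells 1 of 7 was positive, with sums of 5.01 to 42.1 in hyperoxia, against 11.2 to 1202 in room air. These sums lean on miR-499, at -0.73 ± 6.94 (SE), where the other wells of the list had an SE of 0.89 or less. The highest room air mean of the list was only 3.83 on the log2 scale (miR-133a), so 1202 does not describe the list. The liver miRNA miR-122 was at -0.69. Relative to the 5 control RNAs the positive counts were 1 of 7, 2 of 4, 2 of 13 and 5 of 9 in the first 4 of these lists, and miR-34c was at -0.09. The part of cell makeup in the miR-29 values was not tested.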

How the data were processed

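Total RNA was copied with the Megaplex primer sets A and B and pre-amplified for 12 cycles, per the labels' protocols. The authors deposited 1 table with a Ct per well and sample, handled here as a score in cycles (non-normalized, per the file headers) and, as a ratio, the fold between the groups. For the instrument and the Ct threshold, the sources used here give nothing. Wells at a Ct of 35 or more counted as not detected. Within each card the mean Ct of the miRNAs detected in all samples used served as reference. limma 3.58.1 (lmFit and eBayes, two-sided) in R 4.3.3 was fitted on all 551 assays with at least 2 detected samples per group, with Benjamini-Hochberg adjustment. The code was tested on simulated data. Single values were compared by exact permutation tests. The members, lists, tests and naming rule were chosen with earlier results of these data known. Named miRNAs were the family, its other strands, the 5 closest by correlation, the 4 highest and lowest of the matrix list and the extremes of the marker lists. The effect of 25 alternatives is given in the closing section. Each member has 1 well per sample.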

Additional observations from a re-analysis of the deposited data

How the results depend on the processing

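Under 25 alternatives, each of the 3 members kept a positive log2 fold change and did not pass by limma (0 of 75 values). Alternatives that change only the second card, the assays kept for testing, the variance model or a replicate block cannot move these fold changes. They gave 0.85, 1.25 and 0.98 again and are no check of the sign. The range was 0.09 to 1.05 for miR-29a, 0.49 to 1.61 for miR-29b and 0.22 to 1.09 for miR-29c, with limma adjusted p from 0.112 to 0.935. Leaving out 1 sample gave 0.70 to 1.05, 0.95 to 1.61 and 0.83 to 1.09. Replicate numbers did not pair the samples: same-numbered samples correlated by -0.34, -0.23 and -0.18 in their deviations, and 0 of 6 samples correlated best with its own number. With the replicate number as a block the values were 0.85, 1.25 and 0.98 and 0 passed. Over all assays 0 passed as reported, 1 in 7 alternatives and 8 with a Ct of 40 kept (4 higher, 4 lower). In the matrix list 1 well, miR-34a, passed with quantile normalization, a Ct ceiling of 32 or 28, a Ct of 40 kept, the first card alone, plate row G left out, or a trended prior (limma adjusted p from 0.00831 to 0.0463). With 1 sample left out, miR-29b over miR-29a ran from 0.25 to 0.57 and miR-29c over miR-29b from -0.53 to -0.12. Ratios near 0 turned. miR-29c over miR-29a ran from -0.069 to 0.25. miR-29a ran from -0.16 to 0.16 over snoRNA135, -0.026 to 0.24 over snoRNA202 and -0.20 to 0.077 over U87. miR-29c ran from -0.23 to 0.36 over snoRNA135 and -0.064 to 0.27 over U87. Strand ratios carry the means of both cards. Among them, miR-29b over hsa-miR-29b-2# ran from -0.078 to 0.83 and miR-29a over hsa-miR-29a# from -0.10 to 0.20. miR-29b over mmu-miR-29b# ran from -0.57 to 0.31. miR-29c over rno-miR-29c# kept its sign but ran from 0.043 (without room air 2) to 0.89 (without room air 3). When both samples kept the identical second-card values, miR-29b over mmu-miR-29b# turned to 0.58, and the other 3 strand ratios were 0.48 to 0.92. The cause of these turns was not tested. Using each well of a member in turn gave no value, since each member has 1 well, and second-card assays could not be fitted by limma with a replicate block. Having 3 samples a group limits the precision.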

Other observations

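The remaining other-strand well, rno-miR-29b-1#, lay at the detection limit. Its Ct was 34.943 in hyperoxia 1 and 35.094 in hyperoxia 3, against 40 in room air 2 and 35.051 in room air 3, so it could not be tested.

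After the group means were taken off, the miRNAs that followed the mean of the family most closely were not those closest over all 6 samples. They were miR-345-3p (r = 0.99), the muscle miRNA miR-1 (0.98), miR-411 of the Dlk1-Dio3 cluster (0.96), miR-181a (0.94) and rno-miR-381 (0.93). Their log2 fold changes lay between -0.23 and 0.14 and did not pass (limma adjusted p from 0.804 to 0.994). By the same measure miR-221, the closest over all 6 samples, was at 0.92, nearly level with rno-miR-381. The others closest over all 6 samples, miR-21, miR-685, miR-509-3p and miR-135a, were at 0.76, 0.85, 0.78 and 0.76. With 6 samples in 2 groups this is a description only.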
